A study of Homo sapiens with 8 samples.

Results

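Collagen chains are the protein-coding genes of the count table whose symbols have the form COL, a type number, A and a chain number. There were 44 of them among 60708 genes in the table, and 30 of the 44 passed the low-count filter and were tested, among 16008 genes tested in all. Gene expression was measured by RNA sequencing of poly(A) RNA in HS578T cells, an established line from human breast cancer. The libraries formed 4 groups of 2: HSF2oe with TGF-β, HSF2oe control, Mock with TGF-β and Mock control. HSF2oe cells had received 25 µg of a plasmid encoding HSF2, a transcription factor of the heat shock factor family, and Mock cells 25 µg of plasmid for GFP, a fluorescent reporter. A day after transfection the cells went into assay medium for 24 h, either plain (control) or with TGF-β1 at 10 ng/ml, a growth factor whose signal reaches the nucleus through SMAD proteins. Replicates are biological according to the series text, and the labels mention transfection and no selection of clones. One label field gives DMSO for all Mock libraries and TGFb1 for all HSF2oe libraries, which goes against the titles, so the groups here are those of the titles. HSF2oe and Mock differ in the whole plasmid insert, so an effect of HSF2 and one of losing the fluorescent protein cannot be told apart.

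The plasmid gene itself separated the groups: HSF2 stood at 780.3 and 489 CPM in HSF2oe TGF-β, 937 and 616 CPM in HSF2oe control, 5.4 and 5.76 CPM in Mock TGF-β and 8.36 and 6.44 CPM in Mock control. CPM is the usual depth-scaled count, here after TMM scaling, and RPKM is that value per kilobase of annotated exons, the scale on which different genes are compared here. Total counts ran from 17427645 to 34336107 per library. The epithelial markers EPCAM and CDH1 reached at most 0.128 and 1.17 CPM in any library, whereas KRT18 lay between 177 and 275 CPM. The mesenchymal marker VIM lay between 3181 and 4176 CPM, although the labels call the source epithelial cells. Summed levels of the 6 blood and endothelial markers were 2.33 to 7.19 CPM, with CD3E at 0 in every library. Of 6 chondrocyte and osteoblast markers, 4 stayed below 1 CPM in every library, and SOX9 and MATN3 were above 10 CPM in every library. In bulk RNA, fewer cells expressing a chain and less of its RNA per cell cannot be told apart.

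Collagens are trimers of chains that share a repeated glycine pattern, and most types are built from their own chains. Fibrillar collagens form the tensile fibres of connective tissue, COL4 chains form the sheet-like network of basement membranes, and FACIT collagens sit on the surface of fibrils. The remaining types include the beaded filaments of type VI, the anchoring fibrils of type VII, short-chain networks, multiplexins and chains with a transmembrane segment. TGF-β is a long-known inducer of collagen genes in fibroblasts and in tumour stroma.

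The HS578T libraries were rich in collagen RNA. COL chains took between 3.97% (95% Wilson interval 3.96% to 3.98%) and 8.19% (8.18% to 8.20%) of all counts of a library, intervals that cover counting error only. By class, 8 of 11 fibrillar, 4 of 6 COL4, 6 of 10 FACIT and 12 of 17 other chains were tested. The 14 chains that were not tested were COL2A1, COL11A1 and COL24A1 (fibrillar), COL4A3 and COL4A4, COL9A1, COL9A3, COL20A1 and COL21A1 (FACIT), and COL6A5, COL10A1, COL23A1, COL26A1 and COL28A1. Their highest count in any library was 11, and their highest level 0.541 CPM. COL9A1 had no count in any library, which allows a level of up to 3 counts, or between 0.0851 and 0.195 CPM depending on the library. Of the tested chains, 22 reached 1 CPM in every library, 18 reached 10 CPM, 16 reached 100 CPM and 8 reached 1000 CPM.

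Per length, COL1A1, which encodes the α1 chain of type I collagen, was the most abundant chain in all 4 groups. Its RPKM averaged 2141 ± 113 in HSF2oe TGF-β, 1010.0 ± 8.65 in HSF2oe control, 3931 ± 126 in Mock TGF-β and 1726 ± 156 in Mock control (SD, n = 2 each), above every library value of the second chain of each group. COL1A2, the α2 chain of type I, followed in 3 groups and came after COL6A2 and COL6A1 in HSF2oe control, where its RPKM was 518 ± 14.5. Before division by length COL1A2 stood higher there, at 5607 CPM against 3470 for COL6A2 and 3095 for COL6A1. The lengths, 10817, 5334 and 5536 bases, take in all annotated exons of a gene, whichever transcripts the cells made. The order of chains therefore depends on the annotation. The type VI chains COL6A2 and COL6A1 held ranks 2 to 5, with 698 ± 80.5 and 583 ± 86.7 RPKM in HSF2oe TGF-β and 716 ± 38.5 and 657 ± 13.4 RPKM in Mock control. COL3A1, the chain of type III collagen, had 346 ± 39.8, 339 ± 45.3, 808 ± 154 and 753 ± 149.5 RPKM in the HSF2oe TGF-β, HSF2oe control, Mock TGF-β and Mock control groups. Many neighbours in this order did not differ beyond their spread. Among the 29 pairs of neighbouring chains, the library values overlapped in 12 pairs in HSF2oe TGF-β, 9 in HSF2oe control, 10 in Mock TGF-β and 13 in Mock control. COL3A1 and COL6A3 were one such pair in both HSF2oe groups, and COL1A2, COL3A1 and COL6A2 overlapped one after the next in Mock control.

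**Figure D1:**
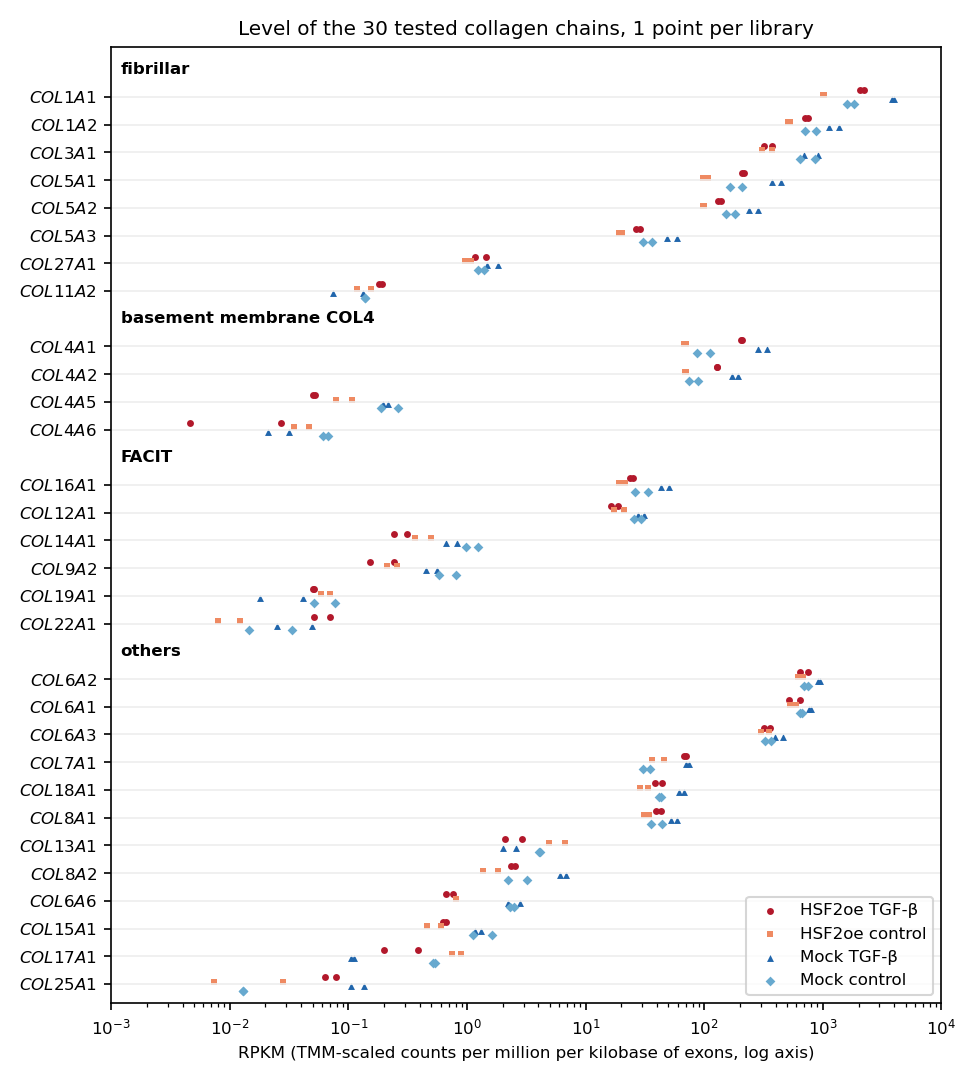
Level of each of the 30 tested collagen chains in RPKM on a log axis, with 1 point per library and the chains grouped by class. The 4 groups of 2 libraries differ by colour and marker; COL1A1 is the chain farthest to the right within each group, and the COL4 and FACIT classes each split into chains above 10 RPKM and chains below 2 RPKM in every library.

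Within classes the levels fell into separate bands. COL4A1 and COL4A2, the chains of the widespread basement membrane trimer, averaged 172 and 115 RPKM over the 8 libraries, against 0.144 RPKM for COL4A5 and 0.0367 RPKM for COL4A6. Among FACIT chains, COL16A1 and COL12A1 averaged 30.4 and 23.3 RPKM, and COL14A1, COL9A2, COL19A1 and COL22A1 lay between 0.641 and 0.0331 RPKM. The fibrillar chains COL5A1, COL5A2 and COL5A3 of type V, which controls the start and width of type I fibrils, averaged 228, 165 and 33.7 RPKM. COL27A1 and COL11A2, best known from cartilage, averaged 1.32 and 0.141 RPKM.

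Promoter sequences are shown for 4 chains with different results in the comparisons, whose RefSeq starts coincide with the gene starts in the count table. Each window is the 250 bases before the start on GRCh38.p14, from RefSeq, written 5′ to 3′ on the gene's strand. COL5A1 (chr9:134641553-134641802, plus strand) and COL5A3 (chr19:10010505-10010754, minus strand) stand for the fibrillar chains that rose with TGF-β and were lower in HSF2oe. COL7A1 (chr3:48595330-48595579, minus strand) rose with TGF-β without an HSF2oe call, and COL17A1 (chr10:104085881-104086130, minus strand) fell with TGF-β. Capitals mark matches, on either strand, to the SMAD box with the letters CAGAC, to the GC box spelled GGGCGG, to the box named CCAAT after its letters, to the TATA box spelled TATAAA, and to pairs of heat shock element units, head to head as GAANNTTC or tail to tail as TTCNNGAA. In these windows no match overlapped another.
COL5A1: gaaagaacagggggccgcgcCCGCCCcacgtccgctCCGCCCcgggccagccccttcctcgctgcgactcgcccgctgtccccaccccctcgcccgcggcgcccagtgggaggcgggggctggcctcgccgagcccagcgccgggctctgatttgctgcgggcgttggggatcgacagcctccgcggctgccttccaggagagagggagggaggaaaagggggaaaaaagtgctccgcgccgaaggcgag
COL5A3: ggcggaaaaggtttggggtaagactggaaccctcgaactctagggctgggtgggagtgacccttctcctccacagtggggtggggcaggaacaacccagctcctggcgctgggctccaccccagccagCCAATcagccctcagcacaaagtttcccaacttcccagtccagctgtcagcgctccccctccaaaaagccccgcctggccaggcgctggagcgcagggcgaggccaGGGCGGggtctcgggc
COL7A1: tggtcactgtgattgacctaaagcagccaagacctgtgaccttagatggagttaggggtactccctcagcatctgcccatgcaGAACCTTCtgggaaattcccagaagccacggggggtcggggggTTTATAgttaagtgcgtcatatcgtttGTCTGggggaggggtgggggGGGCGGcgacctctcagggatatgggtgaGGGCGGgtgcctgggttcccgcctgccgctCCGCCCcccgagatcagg
COL17A1: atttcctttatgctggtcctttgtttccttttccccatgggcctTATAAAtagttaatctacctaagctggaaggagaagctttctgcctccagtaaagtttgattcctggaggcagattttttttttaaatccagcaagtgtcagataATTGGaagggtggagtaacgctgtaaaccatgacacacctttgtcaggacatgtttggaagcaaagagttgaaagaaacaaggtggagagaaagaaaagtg

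The windows differed in composition as well as in motifs. The COL5A1 window was 74% G and C with 2 GC boxes, the COL5A3 window 66% with 1 GC box and 1 CCAAT box, and the COL17A1 window 40.4% with 1 TATA box, 1 CCAAT box and no GC box. The COL7A1 window, at 60.8%, held 3 GC boxes, 1 TATA box, 1 SMAD box and 1 head-to-head heat shock element pair. RefSeq windows were at hand for 32 of the 44 chains and 22 of the 30 tested ones; COL14A1, COL1A1, COL1A2, COL22A1, COL3A1, COL5A2, COL6A1 and COL8A1 have no entry. Among the 22 tested chains, 7 had a SMAD box, 16 a GC box, 7 a CCAAT box, 6 a TATA box, 3 the head-to-head pair and 0 the tail-to-tail pair in at least 1 window. Counted in the same way, per gene with at least 1 such window, 42.8% of all 27305 genes held the SMAD box, 46.2% the GC box, 37% the CCAAT box, 13.0% the TATA box, 7.05% the head-to-head pair and 8.12% the tail-to-tail pair. The 3 chains with a head-to-head pair were COL4A5, COL4A6 and COL7A1. The genes COL4A1 and COL4A2 have 126 bases between their starts, on opposite strands, so their windows overlap. Windows of COL4A5 and COL4A6, with 340 bases between the genes, can overlap too. Matches were taken on either strand, so 1 site can count for both chains. Both chains of such a couple were in the SMAD, GC, CCAAT or head-to-head counts, and whether they share sites was not tested.

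With TGF-β, 9 of the 16 chains at 100 CPM or more in every library rose in both transfections. In HSF2oe cells 9 of the 30 tested chains rose and 2 fell (edgeR's quasi-likelihood test, adjusted p below 0.05), where 4.45% of all tested genes rose and 3.82% fell. In Mock cells 13 chains rose and 2 fell, where 7.32% of all tested genes rose and 6.5% fell. The median log2 fold change of the 30 chains was 0.31 in HSF2oe cells and 0.35 in Mock cells, against -0.01 and -0.00 over all genes tested. The same 9 chains rose in both transfections, namely COL1A1, COL1A2, COL4A1, COL4A2, COL5A1, COL5A2, COL5A3, COL7A1 and COL18A1, and the same 2 fell, COL13A1 and COL17A1. COL8A1, COL8A2, COL16A1 and COL25A1 passed the test in Mock cells and not in HSF2oe cells. Scaling by library totals alone gave 5 rises and 3 falls in HSF2oe cells and 12 rises and 3 falls in Mock cells, and moved the median log2 change of all genes to -0.17 and -0.27. The summed level of 6 mesenchymal markers, none of them a collagen chain, was also higher with TGF-β, at 47871 to 50604 CPM in HSF2oe TGF-β against 33074 to 33756 CPM in HSF2oe control, and 62948 to 71117 CPM in Mock TGF-β against 34620 to 40512 CPM in Mock control. FN1 weighed most in these sums, with 25204 to 54264 CPM over the libraries, against 3181 to 4176 CPM for VIM. All 6 markers were detected in every library, and their part in the collagen results was not tested. Fewer chains, and fewer of all tested genes, passed in HSF2oe cells without HSF2oe control 2. The same held in Mock cells without Mock control 1 or without Mock TGF-β 2. In these fits the median log2 fold change of the tested chains was 0.31, 0.32 and 0.34. Over all genes it was at most 0.0205 in size.

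**Figure D2:**
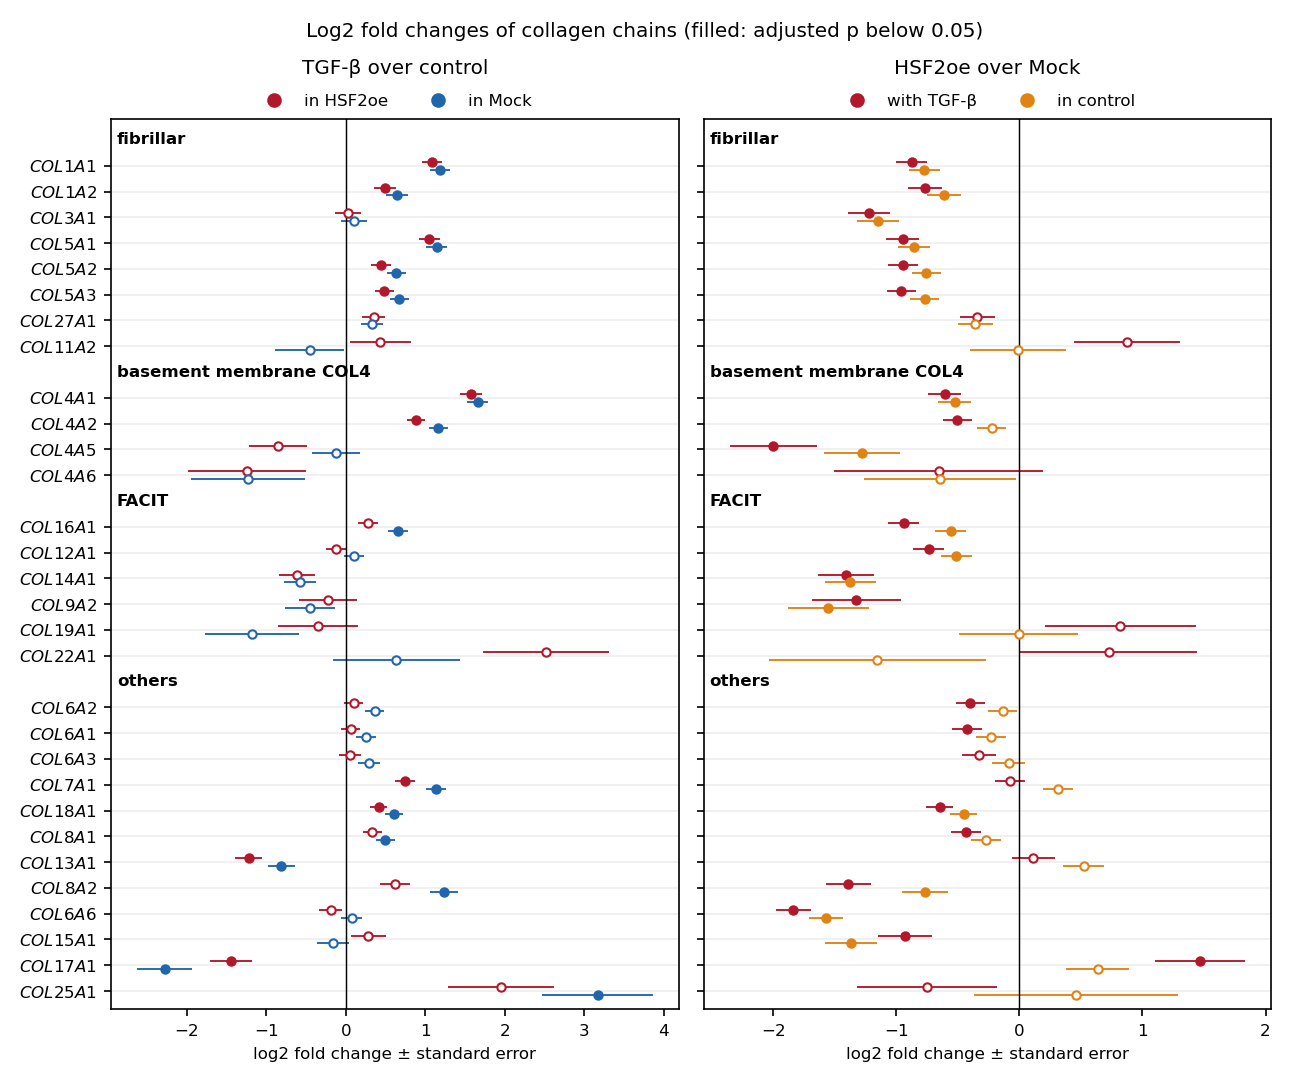
Log2 fold change ± standard error of each tested chain, with TGF-β over control on the left (in HSF2oe and in Mock cells) and HSF2oe over Mock on the right (with TGF-β and in control). Filled points have an adjusted p below 0.05; COL4A1 is the highest filled abundant chain on the left at 1.58 and 1.66, and most filled points on the right lie below 0.

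Among fibrillar chains, 5 of 8 tested rose with TGF-β in each transfection. COL1A1 (ENSG00000108821.14, chromosome 17, 50184101 to 50201632, minus strand, GRCh38) had 20001 and 18562 CPM in HSF2oe TGF-β against 9042 and 9152 CPM in HSF2oe control, and 34607 and 36208 CPM in Mock TGF-β against 14546 and 16539 CPM in Mock control. Both TGF-β libraries lay above both control libraries within each transfection. The log2 fold change was 1.08 ± 0.12 in HSF2oe cells (± standard error throughout, adjusted p = 0.000112) and 1.19 ± 0.13 in Mock cells (adjusted p = 3.91e-05). COL5A1, the main chain of type V, had 2325 and 2427 CPM in HSF2oe TGF-β against 1094 and 1196 CPM in HSF2oe control, and 4195 and 4975 CPM in Mock TGF-β against 1838 and 2310.1 CPM in Mock control. Its groups did not overlap either, with log2 fold changes of 1.05 ± 0.13 (adjusted p = 0.000246) and 1.14 ± 0.13 (adjusted p = 7.95e-05). Neither chain lost its call under any alternative.

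The partner chains COL1A2, COL5A2 and COL5A3 also rose, at smaller log2 fold changes. COL1A2 had 8172 and 7615 CPM in HSF2oe TGF-β against 5718 and 5496 CPM in HSF2oe control, and 12185 and 14736 CPM in Mock TGF-β against 7634 and 9506 CPM in Mock control. Its log2 fold change was 0.49 ± 0.14 in HSF2oe cells (adjusted p = 0.0436) and 0.65 ± 0.14 in Mock cells (adjusted p = 0.00619). COL5A2 rose by 0.44 ± 0.12 (adjusted p = 0.039) and 0.64 ± 0.12 (adjusted p = 0.00304), and COL5A3 by 0.49 ± 0.12 (adjusted p = 0.0202) and 0.68 ± 0.12 (adjusted p = 0.0016). Of these calls, that of COL5A3 in Mock cells held under all alternatives, and the other 5 did not. In HSF2oe cells, COL1A2 was lost without any one of HSF2oe control 1, HSF2oe control 2, HSF2oe TGF-β 1 and HSF2oe TGF-β 2 (adjusted p = 0.129, 0.178, 0.133 and 0.0727), with only the 4 libraries compared (0.0506), with a stricter filter (0.061), by limma-trend (0.157) and under library totals alone (0.1), with a range of 8.51e-07 to 0.178 over its alternatives. COL5A2 in HSF2oe cells was likewise lost without each of these 4 libraries (adjusted p = 0.181, 0.134, 0.0703 and 0.167) and under library totals alone (0.13, log2 fold change 0.28), with a range of 0.000311 to 0.181. COL5A3 in HSF2oe cells was lost without HSF2oe control 1 (adjusted p = 0.14), HSF2oe control 2 (0.0791) or HSF2oe TGF-β 2 (0.129) and under library totals alone (0.0775), with a range of 0.000181 to 0.14. In Mock cells, COL1A2 was lost without Mock control 1 (adjusted p = 0.0795) or Mock TGF-β 2 (0.0937, range 3.91e-11 to 0.0937), and COL5A2 without the same libraries (0.0527 and 0.0549, range 3.54e-08 to 0.0549). Library totals alone lowered the log2 fold change in Mock cells to 0.39 for COL1A2, 0.37 for COL5A2 and 0.41 for COL5A3, with the calls kept.

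The other fibrillar chains did not pass the test for TGF-β. COL3A1 had 2145 and 2526 CPM in HSF2oe TGF-β against 2075 and 2508 CPM in HSF2oe control, and 4723 and 6192 CPM in Mock TGF-β against 4374 and 5803 CPM in Mock control. Its TGF-β and control libraries overlapped in both transfections, at log2 fold changes of 0.03 ± 0.17 and 0.10 ± 0.17 (adjusted p = 0.958 and 0.774) that turned negative under library totals alone. COL27A1 had values of 0.35 ± 0.14 and 0.33 ± 0.14 (adjusted p = 0.179 and 0.159). With the replicate block COL27A1 passed as higher in both transfections (adjusted p = 0.0314 and 0.034). COL11A2, at 1.4 CPM or less in every library, had no call.

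COL4A1 and COL4A2 carried the TGF-β change of the COL4 class. COL4A1 (ENSG00000187498.16, chromosome 13, 110148963 to 110307157, minus strand) had 3008 and 3036 CPM in HSF2oe TGF-β against 992 and 1035 CPM in HSF2oe control, and 4205 and 5010.2 CPM in Mock TGF-β against 1281 and 1637 CPM in Mock control. All TGF-β libraries of COL4A1 lay above all control libraries, and the log2 fold changes were 1.58 ± 0.13 in HSF2oe cells (adjusted p = 1.01e-05) and 1.66 ± 0.14 in Mock cells (adjusted p = 4.99e-06). COL4A2 (ENSG00000134871.19, chromosome 13, 110305812 to 110513209, plus strand) had 2461 and 2488 CPM in HSF2oe TGF-β against 1362 and 1319 CPM in HSF2oe control, and 3299 and 3732 CPM in Mock TGF-β against 1430.0 and 1706 CPM in Mock control. It rose by 0.88 ± 0.12 (adjusted p = 0.000378) and 1.16 ± 0.12 (adjusted p = 2.96e-05), and every TGF-β library again lay above every control library. The genes stand head to head, with RefSeq starts at 110307157 and 110307284 that leave 126 bases between them. COL4A5 and COL4A6, at most 3.09 and 0.624 CPM, did not pass the test for TGF-β.

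The FACIT chains mostly stayed below the threshold with TGF-β. COL16A1, a minor chain of fibril surfaces and cell contacts, had 221 and 233 CPM in HSF2oe TGF-β against 198 and 177 CPM in HSF2oe control, and 401 and 470.1 CPM in Mock TGF-β against 242 and 309 CPM in Mock control. It rose in Mock cells by 0.66 ± 0.13 (adjusted p = 0.00304), a call lost without Mock control 1 (adjusted p = 0.0527, range 1.21e-07 to 0.0527) and smaller under library totals alone, at 0.40. In HSF2oe cells the value was 0.28 ± 0.13 (adjusted p = 0.233). COL12A1, a FACIT chain of dense connective tissue, had values of -0.12 ± 0.12 in HSF2oe cells and 0.10 ± 0.12 in Mock cells (adjusted p = 0.666 and 0.686). COL14A1 had -0.61 ± 0.23 and -0.58 ± 0.20 (adjusted p = 0.139 and 0.0844), and passed as lower in both under library totals alone (0.0298 and 0.00564, ranges up to 0.56 and 0.405). In Mock cells COL14A1 also passed as lower without the filter (adjusted p = 0.0217) and with the replicate block (0.0234). COL9A2, COL19A1 and COL22A1 had no call for TGF-β.

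COL7A1 and COL18A1 also rose in both transfections. COL7A1 (ENSG00000114270.18, chromosome 3, 48564073 to 48595329, minus strand), the chain of the anchoring fibrils below epithelia, had 778 and 746 CPM in HSF2oe TGF-β against 507 and 401 CPM in HSF2oe control, and 784 and 826 CPM in Mock TGF-β against 339 and 392 CPM in Mock control. The TGF-β libraries of both transfections reached a similar range above all control libraries. The log2 fold change was 0.75 ± 0.12 in HSF2oe cells (adjusted p = 0.00172) and 1.14 ± 0.12 in Mock cells (adjusted p = 4.88e-05). COL18A1, whose C-terminal fragment is endostatin, rose by 0.41 ± 0.11 in HSF2oe cells (adjusted p = 0.0326) and 0.61 ± 0.11 in Mock cells (adjusted p = 0.00202). COL18A1 shares 18.5% of its exonic bases with SLC19A1 on the opposite strand, and the counting did not use strand, so reads of these genes could not be told apart there. The COL18A1 call in HSF2oe cells was lost without HSF2oe control 2 (adjusted p = 0.254) or HSF2oe TGF-β 1 (0.186), with only the 4 libraries compared (0.062) and under library totals alone (0.146, log2 fold change 0.25), with a range of 0.00265 to 0.254. In Mock cells library totals alone lowered the COL18A1 change to 0.35.

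The short-chain network chains COL8A1 and COL8A2 passed the test in Mock cells. COL8A2 had 12.0 and 10.96 CPM in HSF2oe TGF-β against 8.61 and 6.39 CPM in HSF2oe control, and 28.3 and 31.8 CPM in Mock TGF-β against 10.3 and 15.1 CPM in Mock control. It rose by 1.24 ± 0.18 in Mock cells (adjusted p = 0.000395), where the groups stood clearly apart, and had 0.62 ± 0.19 in HSF2oe cells (adjusted p = 0.0646). In HSF2oe cells COL8A2 passed as higher under 5 alternatives, DESeq2 among them (adjusted p = 0.0369, range 0.00257 to 0.379). COL8A1 rose by 0.50 ± 0.12 in Mock cells (adjusted p = 0.0135) and had 0.34 ± 0.12 in HSF2oe cells (adjusted p = 0.12), where it passed under 2 alternatives, one of them without the filter (0.0282, range 0.0145 to 0.452). The COL8A1 call was lost without Mock control 1 (adjusted p = 0.18) or Mock TGF-β 2 (0.138) and under library totals alone (0.132, log2 fold change 0.24), with a range of 0.000158 to 0.18. The type VI chains COL6A1, COL6A2, COL6A3 and COL6A6 had no TGF-β call by edgeR's quasi-likelihood test, with log2 fold changes of -0.19 to 0.10 in HSF2oe cells and 0.07 to 0.36 in Mock cells. COL6A2, at 0.36 ± 0.12 in Mock cells (adjusted p = 0.058), passed as higher under 6 alternatives, DESeq2 among them (adjusted p = 0.00929, range 0.00349 to 0.517), and COL6A3 in Mock cells passed without the filter (adjusted p = 0.0245). The multiplexin COL15A1 had none either.

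Chains with a transmembrane segment moved in opposite directions. COL17A1, a component of hemidesmosomes in epithelia, had 2.71 and 1.41 CPM in HSF2oe TGF-β against 6.26 and 5.21 CPM in HSF2oe control, and 0.781 and 0.738 CPM in Mock TGF-β against 3.63 and 3.74 CPM in Mock control. It fell by 1.44 ± 0.27 on the log2 scale in HSF2oe cells (adjusted p = 0.00422) and by 2.28 ± 0.35 in Mock cells (adjusted p = 0.000641), with no overlap of TGF-β and control libraries. COL13A1, which sits at cell adhesion sites, had 33.3 and 23.9 CPM in HSF2oe TGF-β against 76.9 and 57.0 CPM in HSF2oe control, and 30.02 and 23.4 CPM in Mock TGF-β against 47.1 and 46.1 CPM in Mock control. Its TGF-β libraries lay below all control libraries, a fall of 1.22 ± 0.17 in HSF2oe cells (adjusted p = 0.0005) and 0.81 ± 0.17 in Mock cells (adjusted p = 0.00647). The COL13A1 call in Mock cells was lost without Mock TGF-β 2 (adjusted p = 0.0868, range 2.63e-09 to 0.0868). COL25A1, a chain best known from brain, had few reads: 22 and 13 counts in HSF2oe TGF-β, 2 and 8 in HSF2oe control, 14 and 24 in Mock TGF-β and 3 and 4 in Mock control. Its log2 fold change in Mock cells was 3.17 ± 0.70 (adjusted p = 0.00758), and the call was lost without Mock control 1 (adjusted p = 0.0637), Mock control 2 (0.0616) or Mock TGF-β 2 (0.0757, range 0.000431 to 0.0757).

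HSF2oe cells held less RNA of most collagen chains than Mock cells. With TGF-β, 20 of the 30 tested chains were lower in HSF2oe and 1 was higher, where 11.9% of all tested genes were lower and 9.6% higher. In control medium 16 chains were lower and 0 were higher by edgeR's quasi-likelihood test, where 7.22% of all tested genes were lower and 4.88% higher. At an unadjusted p below 0.05, 23 chains passed with TGF-β and 21 in control. Of all 16008 tested genes, 5509 and 4373 passed at that level. DESeq2 called 22 and 17 chains. Over all tested genes it called 1874 lower and 1376 higher with TGF-β, and 1177 lower and 722 higher in control. The median log2 fold change of the 30 chains was -0.70 with TGF-β and -0.54 in control, against -0.00 over all genes in each. All 16 chains that were lower in control were also lower with TGF-β, and COL4A2, COL6A1, COL6A2 and COL8A1 passed the test with TGF-β and not in control, although the difference itself passed for none of them. In control, the median of the tested chains was -0.42 without Mock control 2, -0.64 without HSF2oe control 1 and -0.56 without HSF2oe control 2. With TGF-β the median was -0.57 without Mock TGF-β 2. Over all tested genes these medians were at most 0.0138 in size. In each of these fits fewer chains passed the test, and fewer of all tested genes did too. Of the 16 chains with a mean of at least 100 CPM, 16 were higher in Mock control 2 than in Mock control 1 and 15 higher in Mock TGF-β 2 than in Mock TGF-β 1, at median ratios of 1.19 and 1.15. In both HSF2oe groups 7 of these 16 chains were higher in the second library, at median ratios of 0.945 with TGF-β and 0.965 in control. Such ratios were not taken over all tested genes, so they are not shown to be particular to collagen chains. The 6 epithelial markers, of which EPCAM and KRT19 stayed below 1 CPM in every library, summed to 196 to 219 CPM in HSF2oe TGF-β against 294 to 296 CPM in Mock TGF-β, and to 209 to 235 CPM in HSF2oe control against 265 to 294 CPM in Mock control. The 6 chondrocyte and osteoblast markers, with SP7 at 0 in every library, summed to 60.8 to 70.2 CPM in HSF2oe TGF-β against 52.9 to 59.3 CPM in Mock TGF-β, and to 54.1 to 58.6 CPM in HSF2oe control against 41.9 to 44.1 CPM in Mock control. SOX9 among them lay between 42.8 and 53.4 CPM in the HSF2oe libraries against 23.2 to 29.1 CPM in the Mock libraries. MATN3 went the other way, with 16.4 and 17.8 CPM in HSF2oe TGF-β against 29.7 and 29.0 CPM in Mock TGF-β. In control MATN3 had 11.2 and 10.1 CPM in HSF2oe against 17.1 and 19.3 CPM in Mock. The part of these shifts in the collagen results was not tested.

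Fibrillar chains were lower in HSF2oe at both treatments for 6 of 8 tested members. COL3A1 (ENSG00000168542.16, chromosome 2, 188974373 to 189012746, plus strand), whose library values are given above, had every HSF2oe library below every Mock library. Its log2 fold change was -1.22 ± 0.17 with TGF-β (adjusted p = 0.000386) and -1.15 ± 0.17 in control (adjusted p = 0.00137). COL1A1 was lower, at -0.88 ± 0.12 (adjusted p = 0.000463) and -0.77 ± 0.12 (adjusted p = 0.00219). COL5A1 had -0.95 ± 0.13 (adjusted p = 0.000416) and -0.86 ± 0.13 (adjusted p = 0.00171). COL5A2, with 962 and 1011 CPM in HSF2oe TGF-β against 1729.8 and 2077 CPM in Mock TGF-β, and 716 and 735 CPM in HSF2oe control against 1113 and 1336 CPM in Mock control, had -0.95 ± 0.12 and -0.76 ± 0.12 (adjusted p = 0.000263 and 0.00221). COL5A3, with 180.3 and 195 CPM in HSF2oe TGF-β against 330.2 and 398 CPM in Mock TGF-β, and 130.4 and 137 CPM in HSF2oe control against 208 and 248 CPM in Mock control, had -0.96 ± 0.12 and -0.77 ± 0.12 (adjusted p = 0.000198 and 0.00168). At each treatment, no HSF2oe library of COL5A2 or COL5A3 reached the level of a Mock library. COL1A2 was lower, at -0.77 ± 0.14 with TGF-β (adjusted p = 0.00196) and -0.61 ± 0.14 in control (adjusted p = 0.0132). The COL1A2 call in control was lost without HSF2oe control 1 (adjusted p = 0.0751), HSF2oe control 2 (0.0587) or Mock control 2 (0.137) and by limma-trend (0.0619), with a range of 2.2e-10 to 0.137. COL27A1 had -0.34 ± 0.14 and -0.36 ± 0.14 (adjusted p = 0.107 and 0.117), and passed as lower at both treatments with the replicate block (0.0232 and 0.0198).

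In the COL4 class both abundant chains were lower in HSF2oe with TGF-β, and COL4A1 also in control. COL4A1 was lower in HSF2oe, at -0.61 ± 0.13 with TGF-β (adjusted p = 0.00582) and -0.53 ± 0.13 in control (adjusted p = 0.0209). COL4A2 was lower, at -0.51 ± 0.12 with TGF-β (adjusted p = 0.0083) and had -0.23 ± 0.12 in control (adjusted p = 0.233). The COL4A1 call with TGF-β was lost without Mock TGF-β 2 (adjusted p = 0.0788, range 3.57e-08 to 0.0788). Its call in control was lost without HSF2oe control 1 (adjusted p = 0.151), HSF2oe control 2 (0.0633) or Mock control 2 (0.228, log2 fold change -0.34), with a range of 1.73e-06 to 0.228. The COL4A2 call was lost without HSF2oe TGF-β 1 (adjusted p = 0.0518) or Mock TGF-β 2 (0.0975, range 1.25e-05 to 0.0975) and was -0.31 under library totals alone. The scarce COL4A5, whose protein is part of the kidney filter membrane, had 0.623 and 0.597 CPM in HSF2oe TGF-β against 2.34 and 2.56 CPM in Mock TGF-β, and 0.931 and 1.27 CPM in HSF2oe control against 2.25 and 3.09 CPM in Mock control. All HSF2oe libraries of COL4A5 were below all Mock libraries, with -2.0 ± 0.36 with TGF-β (adjusted p = 0.00184) and -1.28 ± 0.31 in control (adjusted p = 0.0176). The control call of COL4A5 was lost without HSF2oe control 1 (adjusted p = 0.171) or Mock control 2 (0.2, range 0.00148 to 0.2).

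FACIT chains were lower in HSF2oe for 4 of 6 tested members at both treatments. COL14A1, a FACIT chain of skin and tendon, had 3.21 and 2.47 CPM in HSF2oe TGF-β against 6.84 and 8.31 CPM in Mock TGF-β, and 3.69 and 5.05 CPM in HSF2oe control against 9.93 and 12.7 CPM in Mock control. Its groups did not overlap, at -1.41 ± 0.23 (adjusted p = 0.00108) and -1.37 ± 0.20 (adjusted p = 0.00145). COL12A1 had 355 and 306 CPM in HSF2oe TGF-β against 518 and 585 CPM in Mock TGF-β, and 394 and 326 CPM in HSF2oe control against 479 and 549.8 CPM in Mock control, with -0.74 ± 0.12 (adjusted p = 0.00137) and -0.51 ± 0.12 (adjusted p = 0.018). COL16A1 had -0.94 ± 0.13 (adjusted p = 0.000342) and -0.56 ± 0.13 (adjusted p = 0.0132). COL9A2, a cartilage FACIT chain at 3.38 CPM or less, had -1.33 ± 0.36 (adjusted p = 0.0199) and -1.55 ± 0.33 (adjusted p = 0.0093). In control, COL12A1 was lost without HSF2oe control 2 (adjusted p = 0.133) or Mock control 2 (0.163, range 4.01e-05 to 0.163), and COL16A1 without HSF2oe control 1 (0.059), HSF2oe control 2 (0.0892) or Mock control 2 (0.166, log2 fold change -0.37, range 9.44e-06 to 0.166). COL9A2 was lost without HSF2oe control 1 (adjusted p = 0.096) or Mock control 2 (0.124, range 4.41e-05 to 0.124) in control, and without HSF2oe TGF-β 2 (0.104) or Mock TGF-β 2 (0.143, range 0.00323 to 0.143) with TGF-β.

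Among the other chains, COL6A6, a type VI chain that can take the place of COL6A3, had the smallest p of all chains in both HSF2oe comparisons. COL6A6 (ENSG00000206384.10, chromosome 3, 130560334 to 130678155, plus strand) had 6.41 and 7.42 CPM in HSF2oe TGF-β against 21.7 and 27.4 CPM in Mock TGF-β, and 7.9 and 7.81 CPM in HSF2oe control against 22.6 and 24.1 CPM in Mock control. Every HSF2oe library lay far below every Mock library, at -1.84 ± 0.15 (adjusted p = 1.27e-05) and -1.57 ± 0.14 (adjusted p = 9.59e-05). The abundant type VI chains differed much less. COL6A1, with 3569 and 2891 CPM in HSF2oe TGF-β against 4432 and 4259.9 CPM in Mock TGF-β, was lower, at -0.43 ± 0.12 (adjusted p = 0.0255). COL6A2, with 4027 and 3419 CPM in HSF2oe TGF-β against 4826 and 5007 CPM in Mock TGF-β, was lower, at -0.40 ± 0.12 (adjusted p = 0.028). In control, COL6A1 and COL6A2 had -0.23 ± 0.12 and -0.14 ± 0.12 (adjusted p = 0.245 and 0.492), and COL6A3 had -0.33 ± 0.14 with TGF-β (adjusted p = 0.102), where DESeq2 called it lower (0.0397, range 0.00602 to 0.481). The COL6A1 and COL6A2 calls with TGF-β were lost without HSF2oe TGF-β 2 (adjusted p = 0.177 and 0.173), Mock TGF-β 1 (0.111 and 0.0802) or Mock TGF-β 2 (0.0944 and 0.152), with only the 4 libraries compared (0.0593 and 0.0669), by limma-trend (0.0529 and 0.0652) and under library totals alone (0.146 and 0.179). Their ranges were 0.000251 to 0.177 and 0.000685 to 0.179, and the log2 fold changes under library totals alone were -0.24 and -0.21. Without HSF2oe TGF-β 2 the COL6A1 value was -0.28.

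The multiplexins and short-chain network chains were lower in HSF2oe as well. COL15A1 had 4.2 and 4.43 CPM in HSF2oe TGF-β against 8.73 and 7.77 CPM in Mock TGF-β, and 3.08 and 4.0 CPM in HSF2oe control against 7.42 and 10.8 CPM in Mock control. It was lower, at -0.93 ± 0.22 with TGF-β (adjusted p = 0.00864) and -1.37 ± 0.21 in control (adjusted p = 0.00165), with no overlap, and the call with TGF-β was lost without HSF2oe TGF-β 1 (adjusted p = 0.0628, range 0.000173 to 0.0628). COL18A1 had 370.3 and 328 CPM in HSF2oe TGF-β against 520.4 and 574 CPM in Mock TGF-β, and 282 and 243 CPM in HSF2oe control against 350.1 and 368 CPM in Mock control, at -0.65 ± 0.11 (adjusted p = 0.00136) and -0.45 ± 0.11 (adjusted p = 0.0177). COL8A2 was lower, at -1.39 ± 0.18 with TGF-β (adjusted p = 0.000276) and -0.77 ± 0.19 in control (adjusted p = 0.0182). COL8A1, with 409 and 369.9 CPM in HSF2oe TGF-β against 493 and 559 CPM in Mock TGF-β, was lower, at -0.43 ± 0.12 (adjusted p = 0.0218), and had -0.27 ± 0.12 in control (adjusted p = 0.166). With the replicate block COL8A1 passed as lower in control too (adjusted p = 0.0434). In control, COL18A1 was lost without HSF2oe control 2 (adjusted p = 0.13) or Mock control 2 (0.13, range 0.000583 to 0.13) and COL8A2 without the same libraries (0.13 and 0.237, range 3.25e-05 to 0.237), with a COL8A2 log2 fold change of -0.45 without Mock control 2. COL8A1 with TGF-β was lost without HSF2oe TGF-β 1 (adjusted p = 0.0542), HSF2oe TGF-β 2 (0.123) or Mock TGF-β 2 (0.175) and under library totals alone (0.128, log2 fold change -0.24), with a range of 0.00148 to 0.175.

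COL7A1 and the transmembrane chains stood apart from the rest. COL7A1 had log2 fold changes of -0.08 ± 0.12 with TGF-β and 0.31 ± 0.12 in control (adjusted p = 0.695 and 0.116), the first of which was 0.11 under library totals alone. COL17A1 was the only chain that was higher in HSF2oe by the main test, by 1.47 ± 0.37 with TGF-β (adjusted p = 0.0132), and had 0.63 ± 0.25 in control (adjusted p = 0.122). The COL17A1 call was lost without HSF2oe TGF-β 1 (adjusted p = 0.169, log2 fold change 0.91) or Mock TGF-β 2 (0.0942), with a range of 0.000214 to 0.169. COL13A1 had 0.11 ± 0.18 with TGF-β and 0.52 ± 0.16 in control (adjusted p = 0.704 and 0.0557). In control, COL13A1 passed as higher in HSF2oe under 10 of 16 alternatives, among them DESeq2 (adjusted p = 0.0319), only the 4 libraries compared (0.0109) and library totals alone (0.0206), with a range of 0.00043 to 0.46. COL7A1 passed as higher in control under 4 alternatives, among them library totals alone (adjusted p = 0.0358), no filter (0.036) and without HSF2oe control 2 (0.0393), with a range of 0.0329 to 0.685. COL17A1 in control passed with only the 4 libraries compared (adjusted p = 0.0421, range up to 0.482).

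No collagen chain showed a difference between the TGF-β effects of HSF2oe and Mock cells that passed the test. The difference, HSF2oe minus Mock, was called for 0 of 30 chains by edgeR's quasi-likelihood test, where 0% of all tested genes passed, and DESeq2 and limma-trend also called 0 chains. Over all genes, DESeq2 called 12 as higher and 11 as lower in this difference. At an unadjusted p below 0.05, 2 of the 30 chains passed, COL7A1 at -0.39 ± 0.17 and COL8A2 at -0.62 ± 0.26 (adjusted p = 0.809 and 0.805). Of all 16008 tested genes, 977 passed at that level, a similar share. The differences were -0.10 ± 0.17 for COL1A1 and -0.08 ± 0.19 for COL4A1, both called in each transfection. Of the chains called in Mock cells alone, COL8A1 had -0.16 ± 0.17, COL16A1 -0.38 ± 0.18 and COL25A1 -1.21 ± 1.01, and COL8A2 is given above. All of these are negative and none passed the adjusted threshold. The TGF-β effects on COL8A1, COL8A2, COL16A1 and COL25A1 are therefore not shown to differ between the transfections. The same difference is that of the HSF2oe effects with and without TGF-β. Over the 30 chains the median difference was -0.18, against 0.00 over all genes.

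Summed over all 44 chains, collagen RNA was highest in Mock TGF-β. The sum averaged 54945 ± 2663 CPM in HSF2oe TGF-β, 36631 ± 1132 CPM in HSF2oe control, 90727 ± 6949 CPM in Mock TGF-β and 52701 ± 5876 CPM in Mock control (SD, n = 2 each). TGF-β over control was 1.5 in HSF2oe cells and 1.72 in Mock cells, and HSF2oe over Mock was 0.606 with TGF-β and 0.695 in control. The sums of HSF2oe TGF-β, 56828 and 53062 CPM, overlapped with those of Mock control, 48546 and 56855 CPM. The COL4 sum had the largest TGF-β ratios of the 4 classes, 2.33 in HSF2oe and 2.68 in Mock cells, followed by the fibrillar sum at 1.74 and 1.87. For the FACIT sum these ratios were 1.02 and 1.24, and for the other chains 1.07 and 1.27. HSF2oe over Mock was lowest for the fibrillar sum, at 0.541 with TGF-β and 0.581 in control. These sums were not tested, and COL1A1 weighs most in the sum of all chains and in the fibrillar sum.

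**Figure D3:**
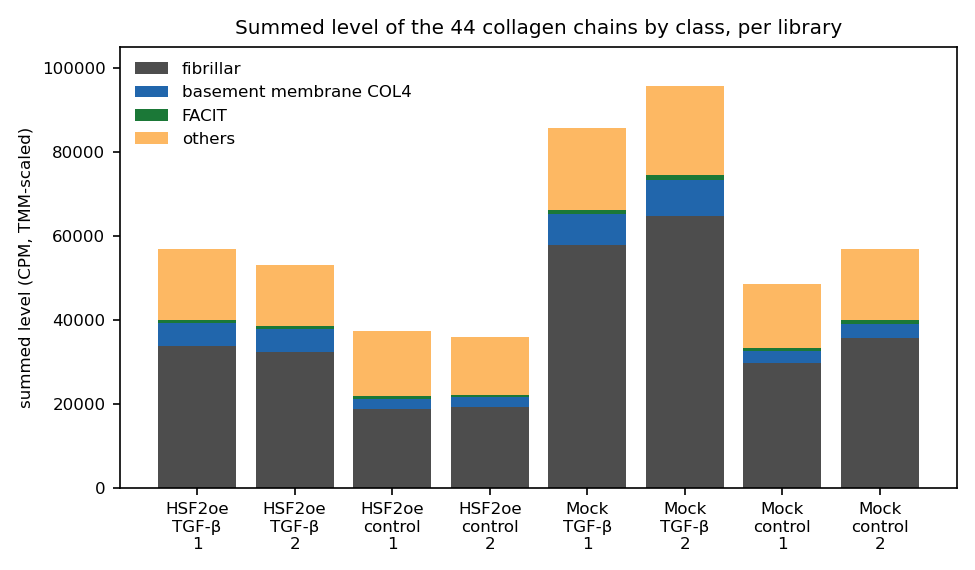
Summed level of the 44 collagen chains in CPM for each of the 8 libraries, stacked by class. The Mock TGF-β libraries reach 85814 and 95641 CPM, the HSF2oe control libraries 37431 and 35830 CPM, and fibrillar chains make up more than any other class in every library.

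The chains of a type did not keep a fixed ratio. COL1A1 over COL1A2, in RPKM, was 2.94 and 2.93 in HSF2oe TGF-β against 1.90 and 2.00 in HSF2oe control, and 3.41 and 2.95 in Mock TGF-β against 2.29 and 2.09 in Mock control. COL4A1 over COL4A2 was 1.61 and 1.60 in HSF2oe TGF-β against 0.957 and 1.03 in HSF2oe control, and 1.68 and 1.76 in Mock TGF-β against 1.18 and 1.26 in Mock control. COL5A1 over COL5A2 was 1.59 and 1.57 in HSF2oe TGF-β against 1.00 and 1.07 in HSF2oe control, and 1.59 and 1.57 in Mock TGF-β against 1.08 and 1.13 in Mock control. In all these pairs every TGF-β library lay above every control library. COL3A1 over COL1A1 went the other way, with 0.143 and 0.181 in HSF2oe TGF-β against 0.306 and 0.365 in HSF2oe control, and 0.182 and 0.228 in Mock TGF-β against 0.401 and 0.468 in Mock control. The type VI ratios varied little, with COL6A1 over COL6A2 between 0.814 and 0.940 in all libraries. COL6A3 over COL6A1 lay between 0.490 and 0.608. Such ratios do not depend on the scaling of the libraries, and they were not tested. Their size depends on the annotated exon lengths, while their relative change between libraries does not.

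**Figure D4:**
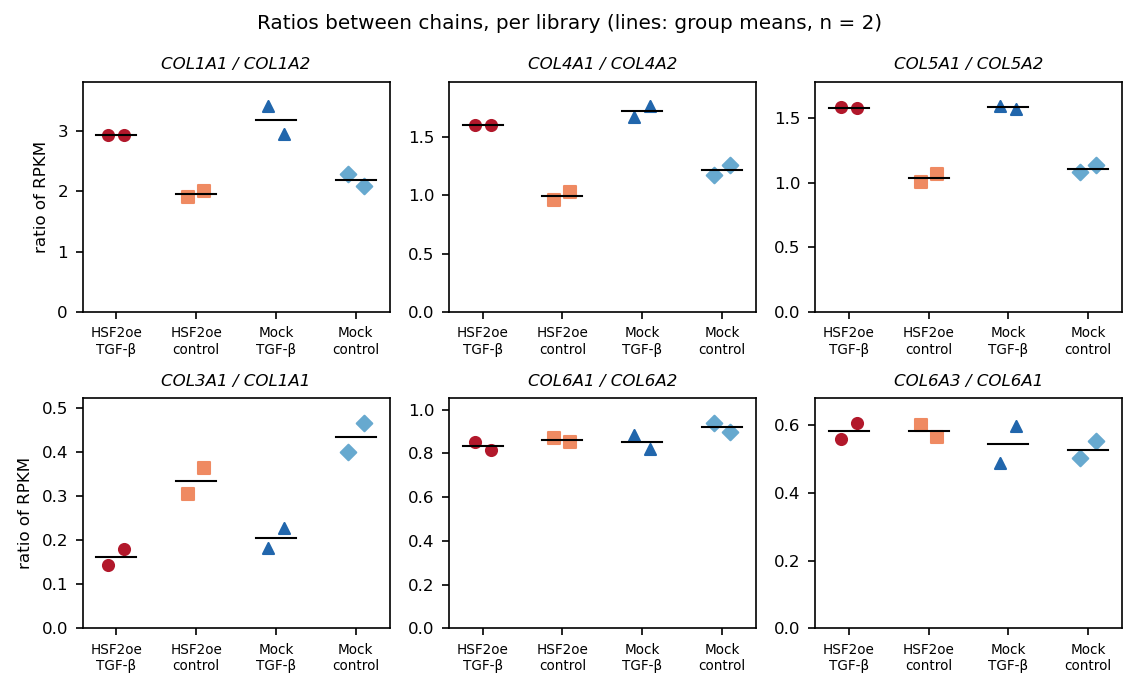
Ratio of RPKM between chains of the same or a related collagen type in each library, with lines at the group means (n = 2). The ratios of COL1A1, COL4A1 and COL5A1 to their partner chains are higher in every TGF-β library than in every control library, and the type VI ratios stay between 0.490 and 0.940.

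Some chains lie close together in the genome. COL3A1 and COL5A2 stand tail to tail on chromosome 2 with 19151 bases between them, and both were lower in HSF2oe at both treatments, while COL5A2 and not COL3A1 passed the test for TGF-β. COL6A1 and COL6A2 lie 93061 bases apart on chromosome 21 in the same orientation, with COL18A1 upstream of them. COL4A5 and COL4A6 stand head to head on the X chromosome with 340 bases between them. COL4A5 was lower in HSF2oe, and COL4A6, at 0.624 CPM or less in every library, had no call in any comparison. COL6A6 lies 75489 bases beyond COL6A5, which was not tested.

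Genes that make, fold, cross-link, bind or degrade collagen were counted as a list of 58, of which 52 were tested. With TGF-β 17 rose and 0 fell in HSF2oe cells, where 4.45% of all tested genes rose and 3.82% fell. In Mock cells 25 rose and 1 fell, where 7.32% of all tested genes rose and 6.5% fell. In HSF2oe 33 were lower and 2 higher with TGF-β, where 11.9% of all tested genes were lower and 9.6% higher. In control 21 were lower and 2 higher in HSF2oe, where 7.22% of all tested genes were lower and 4.88% higher. The median log2 fold changes were 0.24 and 0.46 for TGF-β in HSF2oe and Mock cells, and -0.50 and -0.33 for HSF2oe over Mock with TGF-β and in control, against at most 0.01 in size over all genes. The members named next were chosen after their values were seen, from the 3 of smallest p per list and comparison. Except for MMP1 and the calls marked as lost, the calls given for them held under all alternatives. Other calls of the same genes, some of them lost under an alternative, are not given. SERPINH1, the collagen chaperone of the endoplasmic reticulum, was lower in HSF2oe, at -1.0 ± 0.12 with TGF-β (adjusted p = 0.000142) and -0.84 ± 0.12 in control (adjusted p = 0.000996), and rose by 0.66 ± 0.11 with TGF-β in Mock cells (adjusted p = 0.00156). In HSF2oe cells SERPINH1 rose by 0.51 ± 0.11 (adjusted p = 0.0136), a call lost under 3 alternatives. P4HA2, a catalytic subunit of prolyl 4-hydroxylase, rose with TGF-β by 0.80 ± 0.11 in HSF2oe cells and 0.89 ± 0.11 in Mock cells (adjusted p = 0.000436 and 0.000116).

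Of 7 cross-linking genes, 3 rose with TGF-β in each transfection, and 5 were lower in HSF2oe with TGF-β and 3 in control. Beside this and the next lists, 4.45% of all tested genes rose with TGF-β in HSF2oe cells and 7.32% in Mock cells. In HSF2oe, 11.9% of all tested genes were lower and 9.6% higher with TGF-β, and 7.22% lower and 4.88% higher in control. LOX, which oxidises lysines for cross-links, rose with TGF-β by 0.66 ± 0.11 in HSF2oe cells and 0.97 ± 0.11 in Mock cells (adjusted p = 0.00221 and 7.82e-05). PXDN, which cross-links COL4 networks, rose by 0.58 ± 0.11 and 0.83 ± 0.11 (adjusted p = 0.00487 and 0.000222). TGM2, a transglutaminase, rose by 1.54 ± 0.13 in Mock cells (adjusted p = 9.29e-06). In HSF2oe cells TGM2 rose by 0.70 ± 0.13 (adjusted p = 0.00464), a call lost under 1 alternative. LOXL1 was lower in HSF2oe, at -0.92 ± 0.12 with TGF-β and -0.76 ± 0.12 in control (adjusted p = 0.000259 and 0.00168). Of 8 receptor genes tested, 2 rose with TGF-β in HSF2oe cells and 4 in Mock cells, and 5 were lower and 1 higher in HSF2oe at each treatment. ITGA1, an integrin subunit that binds COL4 networks, rose by 0.94 ± 0.16 in HSF2oe cells and 1.51 ± 0.15 in Mock cells (adjusted p = 0.00207 and 2.96e-05), and shares 13.2% of its exonic bases with a transcript on the opposite strand. DDR1 was lower in HSF2oe, at -1.32 ± 0.14 and -0.93 ± 0.13 (adjusted p = 7.08e-05 and 0.00124), and ITGA11, an integrin subunit for fibrillar collagen, at -1.31 ± 0.12 and -0.68 ± 0.12 (adjusted p = 3.1e-05 and 0.00291). ITGA2, another collagen-binding integrin subunit, was higher in HSF2oe control by 1.81 ± 0.28 (adjusted p = 0.00193). With TGF-β ITGA2 was higher in HSF2oe by 1.13 ± 0.28 (adjusted p = 0.0127), a call lost under 3 alternatives. Of the 7 propeptidase genes tested, 5 were lower in HSF2oe with TGF-β and 4 in control. ADAMTS14, a procollagen N-propeptidase, was lower, at -1.72 ± 0.23 and -1.37 ± 0.23 (adjusted p = 0.000332 and 0.00266). Of 5 protease genes tested, 3 rose with TGF-β in each transfection. In HSF2oe 1 was higher and 1 lower with TGF-β, and 1 was higher and 0 lower in control. The higher gene was MMP1, a collagenase, at 2.19 ± 0.47 with TGF-β and 2.02 ± 0.58 in control, calls that did not hold under all alternatives. MMP13, a collagenase, had 120 and 108 counts in HSF2oe TGF-β against 5 and 2 in HSF2oe control, and 67 and 153 counts in Mock TGF-β against 2 and 2 in Mock control (adjusted p = 1.48e-05 and 3.58e-06). MMP2, a gelatinase, rose with TGF-β by 0.96 ± 0.13 in HSF2oe cells and 1.13 ± 0.13 in Mock cells (adjusted p = 0.000529 and 9.87e-05).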

How the data were processed

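RNA sequencing of 8 HS578T libraries, 4 groups of 2, was analysed from the deposited tables. The authors' deposited count table holds whole-number read counts per gene from featureCounts 2.0.1 on GENCODE 38, run on paired reads with no strand option, per the file headers. The submitters' processing notes name STAR 2.7.9a, GRCh38 and edgeR 3.34.1. A second table, deposited by the authors, holds log2 CPM of 13169 genes, which lie within 0.0226 of TMM-scaled log2 CPM with a prior count of 2 computed from the counts. It served for the limma-trend alternative.

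Counts were filtered by group with edgeR's filterByExpr, which kept 16008 of 60708 genes, and scaled by TMM. All libraries entered 1 quasi-likelihood fit (edgeR 4.0.16, R 4.3.3), with Benjamini-Hochberg adjustment over all tested genes and a threshold of 0.05. The standard error is the log2 fold change divided by the root of F. The fit had 4 residual degrees of freedom and a biological coefficient of variation of 9.91%. Levels are TMM-scaled CPM, and RPKM divides them by the exonic length of the count table. That length covers all annotated exons of a gene, so RPKM orders and ratios between genes depend on the annotation. Figures and summaries used Python 3.11.15. Total counts of 17427645 to 34336107 per library leave little counting error for abundant chains, while 2 libraries a group limit the precision.

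Alternatives were DESeq2 1.42.0, limma 3.58.1, DESeq2 size factors, library totals alone, no filter, a stricter filter, only the libraries compared, the replicate number as a block, and each library left out in turn. Members and gene lists were chosen with earlier results of these data known. Every chain past the threshold is named, and the partner genes named were chosen after their values were seen, from the 3 of smallest p per list and comparison.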

Additional observations from a re-analysis of the deposited data

How the results depend on the processing

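Direction and side of the threshold held under all alternatives for 7 of 11 TGF-β calls in HSF2oe cells, 9 of 15 in Mock cells, 13 of 21 HSF2oe calls with TGF-β and 8 of 16 in control; the calls that were lost are given beside their results, and the cause was not tested. Leaving out each library in turn gave 7 to 12 called chains for TGF-β in HSF2oe cells, 10 to 16 in Mock cells, 14 to 21 for HSF2oe with TGF-β and 8 to 17 in control, and 0 for the difference of TGF-β effects. The lowest counts were 7 without HSF2oe control 2 and 8 without Mock control 2. Same-numbered libraries correlated at 0.0498 to 0.163 in their deviations from the group means. All values were positive, and the largest were within a transfection (0.163 in HSF2oe, 0.118 in Mock). With only 2 numbers the libraries were not taken as pairs, and whether same-numbered libraries share an origin was not tested. With the replicate block 14, 18, 23 and 20 chains were called in the same order of comparisons, and 0 for the difference. Over all 16008 tested genes, the block called 1248 higher and 1118 lower with TGF-β in HSF2oe cells, and 1766 and 1584 in Mock cells. For HSF2oe it called 2237 genes higher and 2663 lower with TGF-β, and 1588 and 2026 in control. For the difference it called 42 genes higher and 36 lower. Under library totals alone, log2 fold changes that had not passed the test changed sign for TGF-β to -0.13 (COL3A1 in HSF2oe cells), -0.16 (COL3A1 and COL12A1 in Mock cells) and -0.19 (COL6A6 in Mock cells), and for HSF2oe with TGF-β to 0.11 (COL7A1), since that scaling moves all genes. Without single libraries the sign of other uncalled values also varied: COL12A1 with TGF-β from -0.25 to 0.028 in HSF2oe and -0.00505 to 0.20 in Mock cells, COL3A1 from -0.10 to 0.17 and -0.11 to 0.31, COL6A6 in Mock cells from -0.11 to 0.22, and COL13A1 in HSF2oe with TGF-β from -0.14 to 0.33. Without the filter 43 chains were tested. Chains near a few counts, such as COL25A1 and COL22A1, are limited by depth.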
